A study of Mus musculus with 9 samples.

Results

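The complement members examined here were 9 genes chosen by name, of the 22054 genes measured: C1qa, C1qb, C1qc, C2, C4b, C3, Cfb, Cfp and C5ar1. Each symbol matched 1 gene, and all 9 passed the filter on low counts in every comparison. RNA came from the callus, the repair tissue that bridges a broken bone, 7 days after a femoral fracture in male C57BL/6J mice. The mice were labelled as 7 weeks old, and all of them carried a pinned fracture of the left femur. From the day after surgery each mouse was injected intraperitoneally with 200 μl daily for 1 week, and 3 libraries were made per group. The H-151 group received 750 nmol of H-151, a covalent inhibitor of STING, the SR-717 group received 30 mg/kg of SR-717, a non-nucleotide STING agonist that occupies the site of cGAMP, and the PBS group received an equal volume of buffer. The solvent of the drugs is not given in the sources used here, so that against PBS a drug and its solvent cannot be told apart. The labels call the tissue bone while their extraction text speaks of cell lines, and macrophage, osteoblast, osteoclast, chondrocyte and skeletal muscle markers were all detected in every library.

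Complement is a cascade of plasma and tissue proteins that marks surfaces and debris for uptake and releases peptides that attract leukocytes. C1q, built of A, B and C chains, starts the classical pathway when it binds antibody or dying cells, and the classical and lectin pathways then cut C4 and C2 to form a C3 convertase. The alternative pathway forms a convertase of its own from C3b and factor B, which properdin stabilises. C5a, released further down the cascade, signals through C5ar1 on neutrophils and other myeloid cells. Most circulating complement is made by the liver, whereas C1q and properdin come largely from myeloid cells, and complement is active in the inflammatory phase of fracture repair. In bulk tissue, a change in the number of cells that express a gene and a change in RNA per cell cannot be told apart.

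The genes lie in few places, and 5 of the 9 (C1qb, C1qc, C3, Cfp and C5ar1) matched the table of RefSeq promoters. All 9 are on the minus strand of GRCm38. C1qb (chr4:136880129-136886187), C1qc (chr4:136889804-136893065) and C1qa (chr4:136895917-136898803) stand side by side, with 3616 and 2851 bases between them. C4b (chr17:34728380-34743882), Cfb (chr17:34856374-34862518) and C2 (chr17:34862604-34898265) lie in the major histocompatibility complex class III region, with 85 bases between Cfb and C2. C3 (chr17:57203970-57228136) is elsewhere on the same chromosome, Cfp (chrX:20925454-20931555) is X-linked, and C5ar1 (chr7:16246743-16259540) is 2588 bases from C5ar2, the gene of the other C5a receptor.

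Promoter windows are shown for a pair of C1q chains, whose RNA levels kept nearly the same ratio in every library, and for C3, the member that varied most. Each runs from 250 bases before to 50 bases after the RefSeq start on GRCm38.p6, 5′ to 3′ on the gene's strand, and capitals mark matches to the letters searched on both strands. Searched were TTCNNNGAA (STAT), GAAANNGAA (IRF), TTNNGNAA (C/EBP), GAGGAAGT (PU.1) and the NF-κB consensus, which 8.30%, 8.56%, 40.7%, 3.20% and 8.46% of 32851 promoters of this length hold. The windows are chr4:136886151-136886450 for C1qb, chr4:136892865-136893164 for C1qc and chr17:57228087-57228386 for C3.
C1qb: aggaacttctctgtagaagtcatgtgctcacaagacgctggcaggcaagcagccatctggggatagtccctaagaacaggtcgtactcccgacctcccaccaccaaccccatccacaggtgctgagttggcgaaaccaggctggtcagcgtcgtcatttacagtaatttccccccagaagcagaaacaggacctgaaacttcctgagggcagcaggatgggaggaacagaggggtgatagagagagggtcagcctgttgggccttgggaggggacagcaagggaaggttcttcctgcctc
C1qc: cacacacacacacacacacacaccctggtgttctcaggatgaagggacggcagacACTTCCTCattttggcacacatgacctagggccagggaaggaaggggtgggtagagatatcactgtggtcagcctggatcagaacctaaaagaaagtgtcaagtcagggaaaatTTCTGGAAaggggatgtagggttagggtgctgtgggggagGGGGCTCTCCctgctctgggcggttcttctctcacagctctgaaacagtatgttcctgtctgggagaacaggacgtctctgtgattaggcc
C3: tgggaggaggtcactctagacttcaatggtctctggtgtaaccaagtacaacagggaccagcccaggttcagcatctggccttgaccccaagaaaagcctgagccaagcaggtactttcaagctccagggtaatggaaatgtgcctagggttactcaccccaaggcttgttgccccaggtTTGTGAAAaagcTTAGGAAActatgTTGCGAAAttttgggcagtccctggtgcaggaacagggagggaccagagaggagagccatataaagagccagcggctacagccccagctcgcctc
No match stood in the C1qb window. The C1qc window held a PU.1 match on the reverse strand at -195, a C/EBP match at -81 and an NF-κB match at -41, counted from the start to the first base of the match. In the C3 window there were 3 C/EBP matches, at -70, -58 and -45. The Cfp window held none of the 5, and that of C5ar1 held a C/EBP match at -157 and an IRF match on the reverse strand at -66. These are matches of letters and not measured binding sites.

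The libraries held between 16987398 and 23272480 counts. SR-717 replicate 1 stood apart from the other 8 libraries at 100.6 on a first principal component with 46.6% of the variance, and the next, PBS replicate 1, was at 38.8. The 9 genes took 0.0564% (PBS replicate 3) to 0.359% (SR-717 replicate 1) of a library's counts. The labels call the libraries replicate biosamples without saying that each came from a separate mouse, so p-values measure the spread between these samples.

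Per length, the C1q chains were the most abundant members in the callus. Mean TPM over the 9 libraries, a unit scaled for gene length and library total, was 402 for C1qa, 367 for C1qb and 281 for C1qc, followed by 184 for C3, 113 for Cfp, 86.3 for Cfb, 46.1 for C5ar1, 17.8 for C4b and 13.7 for C2. C1qa was above 98.5% of all genes in the table by mean TPM, and C2 was above 67.8%. The order C1qa, C1qb, C1qc held in 9 of 9 libraries. Between later neighbours it held in 8 of 9 for C1qc over C3, 7 of 9 for C3 over Cfp, 8 of 9 for Cfp over Cfb, 8 of 9 for Cfb over C5ar1, 9 of 9 for C5ar1 over C4b and 7 of 9 for C4b over C2. Of these later neighbours, only C5ar1 and C4b kept their order in every library.

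The 3 C1q chains varied together. In CPM, TMM-normalized counts brought to the same total in each library, C1qa was at 295, 210.5 and 146 in PBS replicates 1, 2 and 3, at 213, 188 and 167 in the H-151 libraries and at 401, 217 and 216 in the SR-717 libraries. C1qb was at 271, 215 and 143 in PBS, at 201, 188 and 159 with H-151 and at 384, 205 and 192 with SR-717. C1qc was at 222, 175 and 129 in PBS, at 171, 152 and 132 with H-151 and at 333, 180 and 166 with SR-717. For all 3 chains SR-717 replicate 1 was the highest library and PBS replicate 3 the lowest, a span of 2.59- to 2.75-fold. The PBS range enclosed every H-151 value of each chain. The TPM ratio of C1qb to C1qa stayed between 0.850 and 0.976 (coefficient of variation 4.15%, n = 9), and that of C1qc to C1qa between 0.652 and 0.764 (4.76%, n = 9).

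C3, the central protein of all 3 activation pathways, varied far more than the C1q chains. It was at 566, 190.5 and 42.3 CPM in PBS replicates 1, 2 and 3, at 342, 263 and 79.8 with H-151, and at 1620, 215 and 174 with SR-717. SR-717 replicate 1 exceeded every other library, while the other SR-717 values lay inside the ranges of both other groups. Over the 9 libraries the highest level was 38.3-fold the lowest, where the median over 14177 tested genes was 1.93-fold. With SR-717 replicate 1 left out, the span of C3 was 13.4-fold. In PBS alone C3 differed 13.4-fold between libraries. TPM of C3 was 0.0703 of that of C1qa in PBS replicate 3 and 1.06 of it in SR-717 replicate 1.

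Cfb, which encodes the factor B protease of the alternative pathway convertase, was the second most variable member. Its level was 158, 60.3 and 16.7 CPM in PBS replicates 1, 2 and 3, 87.9, 60.2 and 28.8 CPM with H-151 and 480, 58.4 and 61.8 CPM with SR-717, a span of 28.7-fold. As for C3, replicate 1 was the highest library in each group. Without SR-717 replicate 1 the span of Cfb was 9.44-fold.

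C2, the classical pathway counterpart of factor B, has its gene 85 bases away and spanned 3.53-fold. It was at 19.5, 13.7 and 11.9 CPM in PBS, at 18.9, 15.8 and 10.4 CPM with H-151 and at 36.7, 20.9 and 17.3 CPM with SR-717. SR-717 replicates 1 and 2 were above all libraries of the other groups, and SR-717 replicate 3 lay within their ranges. The TPM ratio of Cfb to C2 ran from 1.51 in PBS replicate 3 to 13.5 in SR-717 replicate 1. Counts of C2 and Cfb carry an uncertainty, since the read-through locus Gm20547 covers 42.8% of the exon bases of C2 and 79.5% of those of Cfb. Gm20547 itself was given 0 to 3 counts per library, and in PBS replicate 1 its fractional count of 0.32 made the sum over the 3 loci whole, at 3101.

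C4b, which encodes the C4 protein cut by the classical and lectin pathways, followed an order of its own. It was at 43.9, 59.1 and 18.0 CPM in PBS replicates 1, 2 and 3, at 47.3, 63.6 and 28.5 CPM with H-151 and at 101, 51.8 and 54.0 CPM with SR-717. Replicate 2 was the highest library in the PBS and H-151 groups, whereas for the other 8 genes replicate 1 was the highest in every group. Its transcript is 96.0% identical to that of C4a over 5378 aligned bases, so reads could be split between the copies and the C4b count is uncertain. C4a was listed with the other complement genes but had no entry among the genes measured, so it was not analysed here. Every C4b count was given as a whole number. The TPM ratio of C3 to C4b ran from 2.79 in PBS replicate 3 to 21.6 in SR-717 replicate 1.

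Cfp encodes properdin, the stabiliser of the alternative convertase, and C5ar1 the C5a receptor. Cfp was at 163, 68.2 and 55.2 CPM in PBS, at 79.6, 67.7 and 53.0 CPM with H-151 and at 293, 76.8 and 64.5 CPM with SR-717, spanning 5.54-fold. C5ar1 was at 65.0, 32.0 and 18.0 CPM in PBS, at 47.9, 33.6 and 20.0 CPM with H-151 and at 193, 35.2 and 29.5 CPM with SR-717, spanning 10.7-fold. Both were highest in SR-717 replicate 1 and next highest in PBS replicate 1, with overlap among all 3 groups.

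**Figure D1:**
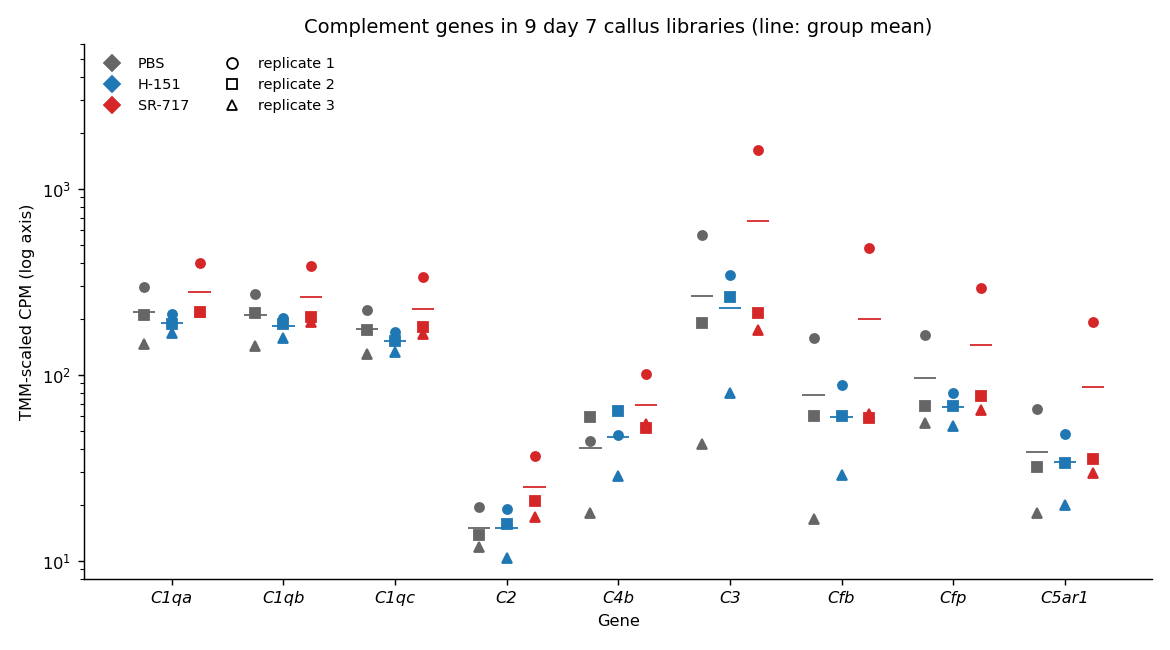
TMM-scaled CPM (log axis) of the 9 complement genes in each of the 9 libraries, colored by group, with 1 symbol per replicate number and a line at the group mean. The SR-717 replicate 1 circle is the highest point of every gene, at 1620 CPM for C3, and the other 2 SR-717 libraries lie among those of the other groups for most genes.

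**Figure D2:**
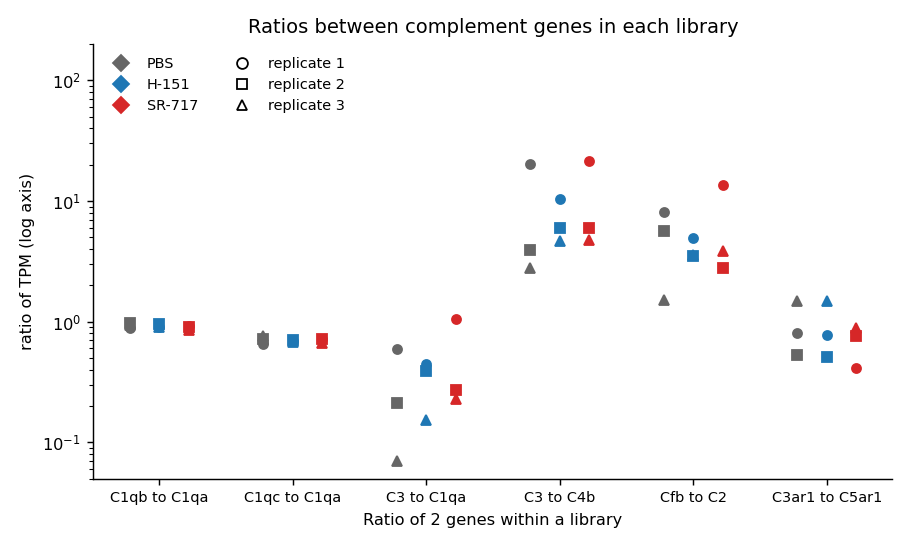
TPM ratios (log axis) of 6 pairs of complement genes within each library, colored by group with 1 symbol per replicate number. The ratios among C1q chains stay between 0.652 and 0.976, whereas Cfb to C2 runs from 1.51 to 13.5 and C3 to C4b from 2.79 to 21.6.

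Within groups, levels of most members ran in the same order as those of leukocyte markers. The 9 neutrophil markers, all detected in every library, summed to 446 to 2781 CPM in PBS, 941 to 3123 CPM with H-151 and 1849 to 11686 CPM with SR-717, with the highest value in SR-717 replicate 1. The 8 macrophage markers, also detected in every library, summed to 2854 to 4536 CPM in PBS, 3186 to 3916 CPM with H-151 and 3375 to 8056 CPM with SR-717. Lyz2 made up most of these sums, with 2190 CPM in PBS replicate 3 and 6596 CPM in SR-717 replicate 1. Adgre1, Csf1r, Cd68, Mrc1, Lyz2 and Fcgr1 were highest in SR-717 replicate 1. Cd163 was instead lowest in replicate 1 of PBS (0.46 CPM) and of SR-717 (0.88 CPM), and Mertk stayed at 17.7 to 24.4 CPM. Within each of the 3 groups, 7 members (C1qa, C1qb, C1qc, C2, C3, Cfp and C5ar1) put the libraries in the same order as the mean log2 CPM of either list, and Cfb did so in 2 groups and C4b in none. Both lists gave the same order in every group, from replicate 1 down to replicate 3. The share of all genes with this order was not computed, so the count does not set the members apart from other genes. The 7 chondrocyte markers were lowest in SR-717 replicate 1 at 167 CPM and PBS replicate 1 at 1394 CPM, the highest libraries of their groups in neutrophil markers, and summed to 3994 to 15248 CPM elsewhere. In the H-151 libraries they did not run against the neutrophil markers, with both sums lowest in replicate 3. Both sums were also lower in replicate 3 than in replicate 2 of PBS (neutrophil 446 and 1922 CPM, chondrocyte 9087 and 15248 CPM). The same held with SR-717 (neutrophil 1849 and 2742 CPM, chondrocyte 3994 and 8706 CPM). The part of the cell makeup of the samples in the complement levels was not tested. Hepatocyte markers, the defining genes of the main source of plasma complement, summed to 1.24 to 15.5 CPM, with up to 2 of 8 at 0 counts in a library and Alb, the albumin gene, at 0.67 to 10.1 CPM. C4b put the libraries in the order of these low markers in 2 of 3 groups, Cfb in 1 and the other members in none. That order used the mean log2 CPM of the 4 of 8 markers that passed the count filter. Adipocyte markers also ran in the order of C4b in PBS (0.874, 2.539 and 0.617 in replicates 1, 2 and 3) and with H-151 (2.309, 3.346 and 1.89). With SR-717 they did not (2.111, 2.188 and 2.555). The part of hepatocyte or adipocyte markers in the C4b level was not tested.

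**Figure D3:**
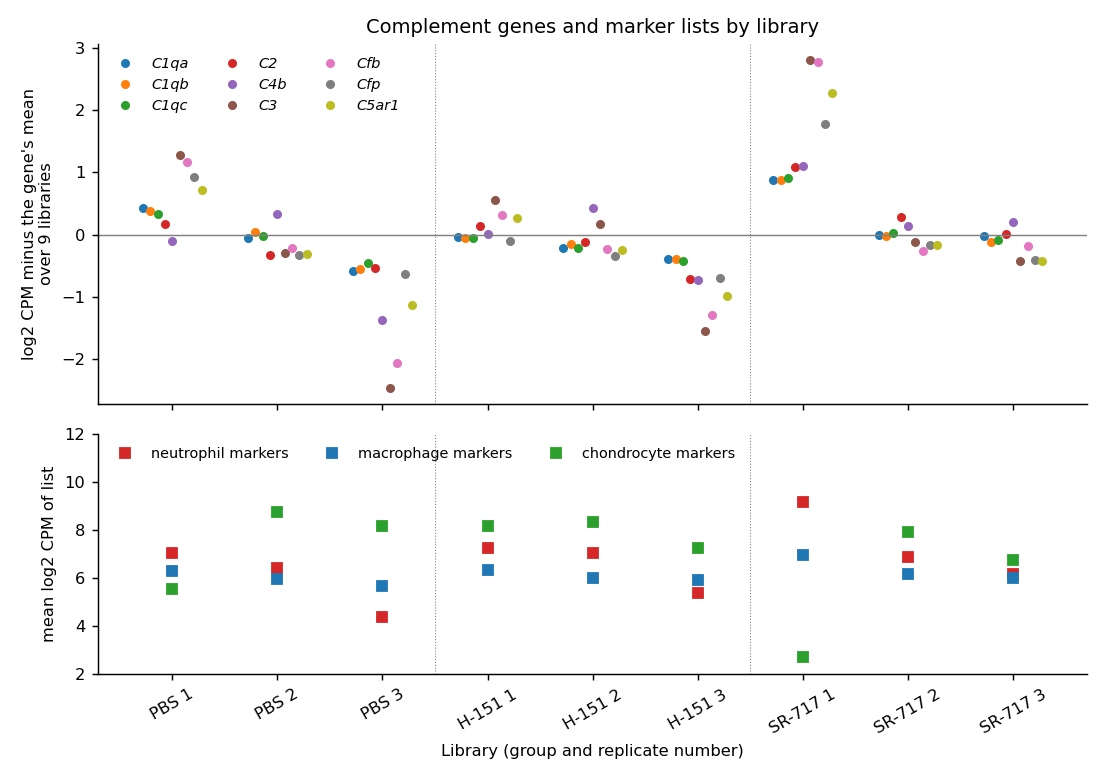
Upper panel, log2 CPM of each complement gene minus its mean over the 9 libraries. Lower panel, mean log2 CPM of the neutrophil, macrophage and chondrocyte marker lists in the same libraries, which are named by group and replicate number and have no order within a group. C3 and Cfb lie farthest from 0 in SR-717 replicate 1 and PBS replicate 3, the libraries with the highest (9.19) and lowest (4.39) neutrophil level.

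Likeness between genes was measured as the mean absolute difference of log2 CPM over the 9 libraries after each gene's mean was removed, among 14293 other genes. The nearest genes of C1qa were C1qb (0.044), Trpv2 (0.046) and C1qc (0.052), against a median of 0.40 over all genes. For C1qb and for C1qc the nearest was Prr13 (0.042 and 0.031), and the 2 places after it were the other C1q chains. Against medians of 1.11 and 0.99, C3 was nearest to Siglece, Mcemp1 and Lcn2 (0.14 to 0.17), and Cfb to Ifi205, H2-Q10 and Mcemp1 (0.16 to 0.19). H2-Q10 belongs to a family of similar class I genes, which makes its count uncertain. C3 and Cfb were 0.21 apart, which placed Cfb sixth among the neighbours of C3, while C3 and C2 were 0.79 apart. C5ar1 was nearest to Ass1, Fgr and Itgam (0.080 to 0.094), Cfp to Fcer1g, Cxcl16 and Neurl3 (0.072 to 0.11), C2 to Unc93b1, Agtrap and Susd3 (0.098 to 0.12), and C4b to Vtn, Cnr2 and Scnn1a (0.16 to 0.18). The values describe the same 9 libraries for every gene, and SR-717 replicate 1 enters each of them.

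The comparison of SR-717 with H-151 asked how activating and blocking STING differ. All 9 log2 fold changes were above 0, and none of the 9 members was called at an unadjusted p under 0.05 with at least a 1.5-fold change in edgeR's quasi-likelihood test, where 0.756% of all 14151 genes were called. Cfb had the largest difference, 1.75 on the log2 scale (standard error 0.93), followed by C3 at 1.54 (standard error 0.99) and C5ar1 at 1.33 (standard error 0.79). For Cfp the value was 1.11 (standard error 0.60), for C2 0.72 (standard error 0.36), and for the C1q chains and C4b 0.50 to 0.57. No member had an unadjusted p under 0.05, and every Benjamini-Hochberg adjusted p was 0.996 in edgeR. The median over the members was 0.72, beside 0.02 over all tested genes.

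Only for C1qa did the groups not overlap, with the lowest SR-717 library at 216 CPM and the highest H-151 library at 213 CPM, and 2.67% of all genes had every SR-717 library above every H-151 library. DESeq2's Wald test called 1 member, Cfb, at a log2 fold change of 1.76 and an adjusted p of 1.00, where it called 1.48% of genes. Without SR-717 replicate 1 the log2 fold change was -0.24 for C3, -0.07 for C5ar1, 0.02 for Cfb, 0.07 for Cfp, 0.33 for C2, 0.18 for C4b and 0.11 to 0.18 for the C1q chains, and no member was called. Without SR-717 replicate 3 instead, 3 members (C1qc, C2 and Cfp) were called, where 4.60% of genes were.

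Against PBS, the SR-717 group again had all 9 log2 fold changes above 0, with 0 of 9 members called and 0.519% of 14070 genes called by edgeR. C2 differed most for its error, by 0.73 (standard error 0.35) on the log2 scale. C3 stood at 1.33 (standard error 1.17), Cfb at 1.35 (standard error 1.09), C5ar1 at 1.17 (standard error 0.84), C4b at 0.77 (standard error 0.48), Cfp at 0.60 (standard error 0.70) and the C1q chains at 0.31 to 0.37. Adjusted p-values were all 1.00 in edgeR's test, the median of the members was 0.73, and that of all tested genes 0.01. DESeq2 called none of the 9, and edgeR gave none a p under 0.05. None of the 9 had every SR-717 library above every PBS library, where 1.49% of all genes did.

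SR-717 and PBS libraries of equal number correlated in their deviations from the group means at r = 0.650, 0.341 and 0.139, although SR-717 replicate 3 was not closest to PBS replicate 3. In this comparison edgeR with the number as a block called 4 of 9 members, all higher with SR-717, where 3.15% of all genes were called. In log2 units C2 rose by 0.69 (standard error 0.18), C3 by 1.25 (standard error 0.40), Cfb by 1.16 (standard error 0.43) and C5ar1 by 0.81 (standard error 0.31), each past the unadjusted threshold and with an adjusted p of 0.999 in edgeR. Of the 9 members, 6 (C1qa, C1qc, C2, C3, Cfp and C5ar1) were higher with SR-717 in all 3 same-numbered pairs, where 11.0% of all genes were. The log2 ratios of C2 in pairs 1, 2 and 3 were 0.91, 0.60 and 0.54, the most even of the 4. Those of C3 were 1.52, 0.18 and 2.04, and those of C5ar1 1.57, 0.14 and 0.72. Cfb was not higher in every pair, with 1.61, -0.05 and 1.89. Under the same block 9 of 9 neutrophil markers (median log2 fold change 1.49), 1 of 8 macrophage markers (0.35) and 5 of 7 chondrocyte markers (-1.79) were called, and their part in the member values was not tested.

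The blocked calls depended on the pairs. With this block and pair 1 left out, 0 of 9 members were called (0.953% of genes), with pair 2 left out 5 were, C4b joining the 4 (4.86% of genes), and with pair 3 left out C2 alone was called (7.92% of genes). Without the block, leaving out SR-717 replicate 1 put 7 members below 0, between -0.46 for C3 and -0.0046 for C1qa, and left C2 at 0.35 and C4b at 0.39. Without SR-717 replicate 3, C2 alone was called, at a log2 fold change of 0.94, where 2.22% of genes were.

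**Figure D4:**
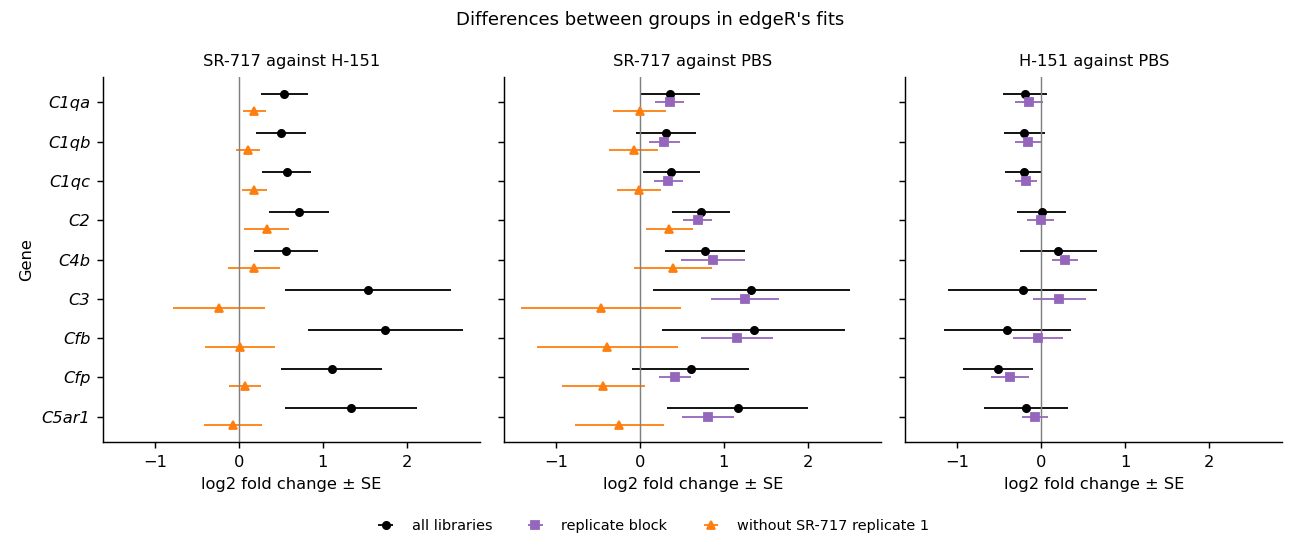
Log2 fold changes with standard errors of the 9 genes in edgeR's fits of the 3 comparisons, from all libraries, from the block fit for the 2 comparisons against PBS, and without SR-717 replicate 1. All 9 values lie right of 0 in both SR-717 comparisons with all libraries. Without SR-717 replicate 1, those of C3, Cfb, Cfp and C5ar1 lie near or below 0, and those of the C1q chains lie just below 0 against PBS.

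H-151 and PBS showed no called difference in any member. None of 9 was called by edgeR's test (0.426% of 14085 genes) or by the block fit (1.86% of genes), and none had every H-151 library above every PBS library (1.56% of genes). Log2 fold changes were -0.52 (standard error 0.41) for Cfp, -0.41 (standard error 0.76) for Cfb, -0.22 (standard error 0.89) for C3, -0.21 to -0.18 for the C1q chains and C5ar1, 0.00 (standard error 0.29) for C2 and 0.20 (standard error 0.46) for C4b. The median was -0.20, beside -0.03 over all genes, and every adjusted p was 1.00. Cfp was lower with H-151 in all 3 same-numbered pairs, as were 11.5% of genes, by a log2 ratio of -1.03 in pair 1 and of -0.01 and -0.06 in the others. C4b was higher in all 3 pairs, by 0.11, 0.11 and 0.66, and the share of all genes higher in all 3 pairs was not computed. In the unblocked fit the standard error exceeded the difference for every member but Cfp, and in the block fit the difference exceeded its error also for C4b (0.28, standard error 0.15), C1qc (-0.18, standard error 0.13) and C1qb (-0.16, standard error 0.15). DESeq2 called none of the 9. Both comparisons with PBS use the same 3 PBS libraries.

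**Figure D5:**
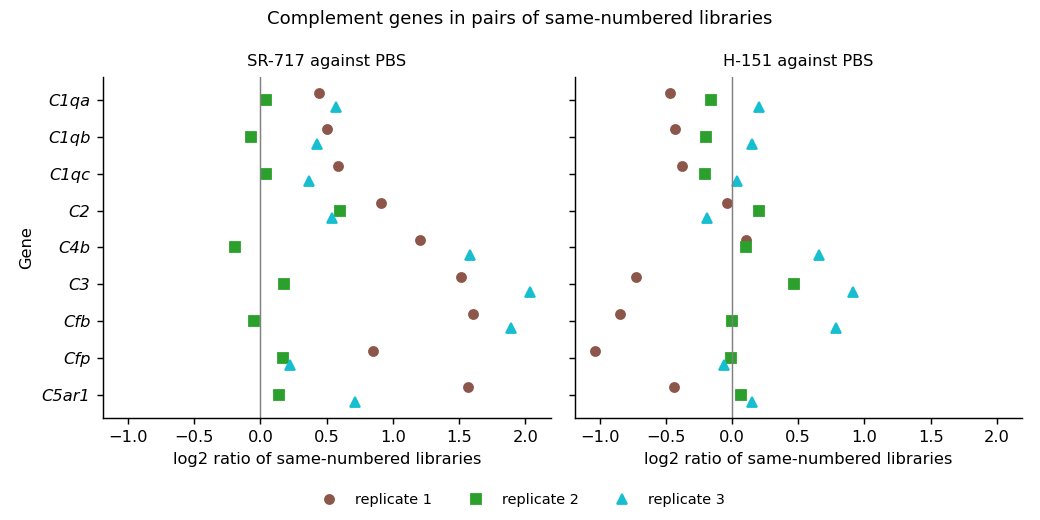
Log2 ratios of CPM between same-numbered libraries for the 9 genes, SR-717 over PBS and H-151 over PBS, with 1 symbol per replicate number. The C2 ratios of SR-717 to PBS are 0.54 to 0.91 in all 3 pairs, whereas those of C3 run from 0.18 to 2.04.

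Of 48 other complement genes listed with earlier results of these data known, 47 were in the table and 28 or 29 were tested. None was called, or had an unadjusted p under 0.05, in any of the 3 comparisons by edgeR, and none was called by DESeq2. Positive were 19 of 29 for SR-717 against H-151, 22 of 28 for SR-717 against PBS and 15 of 29 for H-151 against PBS. Over all tested genes 7563 of 14151, 7351 of 14070 and 6220 of 14085 were positive in these comparisons. C1ra and C1s1, which encode the proteases carried by C1q and have close copies that make their counts uncertain, reached 94.5 and 148 TPM in their highest library. Serping1, the C1 inhibitor gene, had 165 to 765 TPM, so it was on the level of the C1q chains. Its CPM was 532, 263 and 163 in PBS replicates 1, 2 and 3, 304, 300 and 195 with H-151, and 811, 255 and 300 with SR-717, with replicate 1 highest in every group.

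Cfd, a partner of C3 and Cfb in the alternative pathway, put the libraries in another order than they did. Cfd, which encodes the factor D protease that cuts factor B and is made mainly by fat cells, was at 3.71, 20.0 and 2.98 CPM in PBS, 16.5, 46.5 and 10.0 CPM with H-151 and 22.9, 14.3 and 28.0 CPM with SR-717. It was highest in replicate 2 of the PBS and H-151 groups. In the unblocked fit Cfd was higher with SR-717 than with PBS, by 1.28 (standard error 0.76) in log2 units. Against H-151 its SR-717 value was -0.18 (standard error 0.58), and neither difference was called. In the block fit, 3 of 29 tested other complement genes, where 1.86% of all genes were called, rose with H-151 against PBS at the unadjusted threshold (adjusted p = 1.00, edgeR): Cfd by 1.68 in log2 units (standard error 0.22), and Fcnb by 1.21 (standard error 0.20) and Fcna by 0.64 (standard error 0.19), which encode ficolins that start the lectin pathway. Under the same block 3 of 4 tested adipocyte markers and 5 of 9 neutrophil markers were called, and their part in these values was not tested.

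Of the receptor genes, 6 of 6 tested had positive values for SR-717 against H-151, with a median log2 fold change of 0.71 and none called, where 7563 of all 14151 genes were positive. The 9 neutrophil markers were also positive there, with a median of 1.31, and their part in the receptor values was not tested. Itgam and Itgb2, the chains of the C3 fragment receptor CR3 on neutrophils and macrophages, had values of 1.18 (standard error 0.82) and 0.82 (standard error 0.48). Itgam was at 455 CPM in SR-717 replicate 1 and at 77.1 and 64.2 CPM in the other SR-717 libraries. The block fit of SR-717 against PBS called 2 of 28 tested other complement genes, where 3.15% of all genes were called, Itgb2 at 0.69 (standard error 0.26) and Fcnb at 1.64 (standard error 0.46), with an adjusted p of 0.999 in edgeR. C3ar1, the C3a receptor gene, was at 98.3, 38.1 and 52.8 CPM in PBS, 76.0, 38.1 and 51.6 CPM with H-151 and 177, 57.7 and 45.4 CPM with SR-717. The TPM ratio of C3ar1 to C5ar1 ran from 0.413 in SR-717 replicate 1 to 1.49 in H-151 replicate 3. The membrane regulator Cd55 (8.32 to 18.5 TPM), with its near copy Cd55b listed at 0 in every library, was higher with SR-717 by 0.68 (standard error 0.35) against H-151 and by 0.79 (standard error 0.38) against PBS in log2 units, neither of which was called.

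Terminal components were low. Hc, the C5 gene, had 81 counts in SR-717 replicate 1 and 0 to 5 counts in each other library, too few to be tested. C6, C7, C8a, C8b and C9 stayed at or below 1.15 TPM in every library, with C8b at 0 throughout, and C8g was at 0.643 to 3.50 TPM and was not called in any comparison. The largest negative values were those of Susd4, a membrane regulator, and Colec11, a lectin pathway starter, at -0.94 (standard error 0.60) and -0.78 (standard error 0.58) against H-151 and at -0.76 and -0.47 against PBS with SR-717, from means of at most 1.67 CPM. For H-151 against PBS, Cfhr2 (-0.47) and Cfi (-0.36) were lowest, both below 1 CPM on average.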

How the data were processed

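Callus RNA of 9 libraries was measured by poly(A)-selected, strand-specific, paired-end sequencing. The authors deposited expected counts per gene, estimates that need not be whole, and TPM values; the genome build is mm10 per the labels, and the aligner and counter are not given in the sources used here. Of all values 8.91% were not whole. Counts were rounded, filtered (filterByExpr, a count of 10 and a total of 15), TMM-normalized and tested by glmQLFit and glmQLFTest (edgeR 4.0.16, R 4.3.3) on the 6 libraries of each comparison. The design had assumed counts, and rounding was the only change. Genes were called at an unadjusted p under 0.05 with a 1.5-fold change, and p-values were adjusted by Benjamini and Hochberg over all tested genes. CPM are TMM-scaled, and log2 CPM used a prior count of 2. Standard errors given for edgeR were derived from its test, as the absolute log2 fold change divided by the square root of the quasi-likelihood F.

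Groups and replicate numbers came from the sample labels, which do not say what a number stands for. After each group mean was removed, libraries of equal number correlated over genes at r = 0.650, 0.341 and 0.139 for SR-717 with PBS and 0.305, 0.485 and 0.503 for H-151 with PBS, all over the limit of 0.1, so that these were also fitted with the number as a block.

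Alternatives were DESeq2 1.42.0 (its size factors and its Wald test), 1 joint fit of all 9 libraries, no filter or a mean count of 50 as minimum, the block, a 2-fold threshold, limma 3.58.1 on log2(TPM + 1) or log2(TPM + 0.1) and each library left out. The block with each replicate number left out was added after the data were seen. The fits were tested on simulated data. The members, the lists of complement genes and markers, and the rules were chosen with earlier results of these data known. Named besides the members were the complement genes called, the 2 largest rises and falls among those tested, fixed partners (Cfd, Hc, Serping1, Cd55, C3ar1 and Itgam, with 1 more not reported here) and the 3 genes nearest to each member. Gene positions are those of GENCODE on GRCm38 and promoters those of RefSeq on GRCm38.p6. Histology, micro-CT and culture data were not analysed here.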

Additional observations from a re-analysis of the deposited data

How the results depend on the processing

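Of the 3 counts of called complement members, that of H-151 against PBS stayed at 0 under every alternative run. For SR-717 against H-151 the 0 became 1 by DESeq2's Wald test and 0 to 3 with a library left out. With the replicate block it became 1 (C2), where 143 of 14151 genes were called. For SR-717 against PBS the 0 became 4 with the replicate block and 0 to 1 with a library left out. Same-numbered libraries of SR-717 and H-151 correlated with r of 0.342, 0.062 and 0.079, and only number 1 was closest to its own number. The labels do not say what a number stands for, so whether these libraries share more than a number is not known. With the block and a replicate number left out, the members called were 0 to 5 against H-151 and 0 to 5 against PBS, the other complement genes 0 to 4 and 0 to 7, and all genes 103, 247 and 755 and 135, 683 and 1131.

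Counts of other complement genes moved from 0 to 2 (Hc and Cr2) with no filter for SR-717 against H-151, to 1 (Cd55) with all 9 libraries in 1 fit and 2 with the block for SR-717 against PBS, and to 3 with the block for H-151 against PBS. With a library left out they were 0 to 2, 0 to 1 and 0 to 2 in the 3 comparisons. All genes called numbered 107 for SR-717 against H-151, 73 for SR-717 against PBS and 60 for H-151 against PBS, and none had an adjusted p under 0.05 by edgeR (146, 97 and 91 had an unadjusted p under 0.05) and 1, 0 and 0 did by DESeq2. They became 209 and 138 by DESeq2's Wald test in the SR-717 comparisons, 223, 194 and 127 with no filter, 61, 37 and 28 at a mean count of 50, 171 and 176 with all 9 libraries in 1 fit for the SR-717 comparisons, 443 and 262 with the block against PBS, and 69, 41 and 33 at 2-fold. With a library left out they ranged from 64 to 661, 95 to 319 and 43 to 698. The cause was not tested.

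Log2 fold changes that changed sign with a library left out ranged as follows. For SR-717 against H-151, C3 ran from -0.24 to 1.99 and C5ar1 from -0.073 to 1.74, lowest without SR-717 replicate 1. For SR-717 against PBS, again lowest without that library, C1qa ran from -0.0046 to 0.64, C1qb from -0.079 to 0.54, C1qc from -0.015 to 0.58, C3 from -0.46 to 2.52, Cfb from -0.39 to 2.37, Cfp from -0.44 to 1.23 and C5ar1 from -0.25 to 1.78. For H-151 against PBS, C1qa ran from -0.41 to 0.097, C1qb from -0.41 to 0.036, C1qc from -0.39 to 0.0077, C2 from -0.19 to 0.24, C3 from -0.73 to 0.98, C4b from -0.15 to 0.59, Cfb from -0.88 to 0.62, Cfp from -0.79 to 0.12 and C5ar1 from -0.52 to 0.44, and all 9 were above 0 without PBS replicate 1. In that comparison C2 and C3 also turned to -0.0062 and 0.22 with the block, to -0.085 and 0.34 on log2(TPM + 1) and to -0.093 and 0.36 on log2(TPM + 0.1). None of these values was called with all libraries in the unblocked edgeR test. Of 585 values under alternatives, 483 kept direction and side. With 3 libraries per group, 1 of them far from the rest, no member differed beyond the spread in the unblocked edgeR test, while the block against PBS called 4 members for SR-717 and 3 other complement genes for H-151 at the unadjusted threshold.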
